A study of Mus musculus with 104 samples.

Results

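RNA sequencing of primary mouse hepatocytes (PMH) was examined for 8 genes of glyoxylate metabolism: Hao1, Agxt, Agxt2, Grhpr, Hoga1, Prodh2, Ldha and Dao. They were taken by gene symbol and are 8 of the 55416 genes listed. 6 of the 8 passed the filter on low counts, as did 12153 genes in all, and Prodh2 and Dao did not. PMH from a commercial supplier were lipid-transfected in multiwell plates with a GalNAc-conjugated siRNA at 0.1, 1, 10 or 50 nM and harvested 24 h later. The siRNAs D1, D2 and D3 target Hao1 and share 1 sequence, with D1 as the parent, while position 5 of the guide holds GNA-C in D2 and GNA-isoC in D3. Those against Ttr, the transthyretin gene, are the parent D4, D5 with GNA-G and D6 with GNA-isoG, both placed at position 6 of the guide. GNA (glycol nucleic acid) is a nucleotide whose sugar is replaced by an acyclic glycol, and the isonucleotides carry isocytosine or isoguanine in place of cytosine or guanine. Each of the 24 siRNA and dose groups had 4 libraries, and 8 libraries were mock transfected, with no gene deleted or added in any group. The labels give neither the strain nor the age of the mice, and do not say whether libraries of a group came from separate wells, so that p-values measure the spread between these libraries.

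Glyoxylate is a small reactive aldehyde that hepatocytes make in peroxisomes from glycolate and in mitochondria from hydroxyproline. Hao1 encodes glycolate oxidase, the peroxisomal enzyme that turns glycolate into glyoxylate, and its silencing lowers glyoxylate supply in primary hyperoxaluria. Agxt and Agxt2 encode aminotransferases that turn glyoxylate into glycine, Grhpr a reductase that returns it to glycolate, and Ldha the lactate dehydrogenase subunit that makes oxalate from it. Prodh2 and Hoga1 act at the first and the last step of hydroxyproline breakdown, which releases glyoxylate, and Dao oxidises glycine to glyoxylate. The comparisons asked whether the enzymes around glyoxylate responded when Hao1 was silenced, and how Hao1 behaved with siRNAs against an unrelated mRNA.

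The sequence that D1, D2 and D3 are directed against is shown first, since every difference in Hao1 below refers to it. Hao1 (ENSMUSG00000027261) lies at chr2:134339279-134396289 of GRCm39, on the minus strand. The 23-base site is at chr2:134340220-134340242, inside the coding part of exon 8 of the 8 exons of ENSMUST00000028704.4, and occurs at 1 place in that transcript. Capitals mark the bases opposite guide positions 2 to 8, the seed.
Hao1 target site: cagaatgtgaaagtcATCGACAa
The best alignment without gaps of these 23 bases to the transcripts of the other 7 enzymes, and to that of Hao2, had 13 to 15 identical bases. GNA-C or GNA-isoC at guide position 5 sits within the stretch in capitals.

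Matches to guide positions 2 to 7 were then looked for in the canonical transcripts of all 8 enzymes, on the sense strand, as TCGACA for the Hao1 siRNAs and TCTATA for the Ttr siRNAs, in GENCODE's annotation of GRCm39. Beside the target site, 3 matches were found, all in 3′-UTRs, and each is shown with the match in capitals because it lies in a member of the pathway.
Hao1, match to the Ttr siRNAs, chr2:134340058-134340085, minus strand: aactccccactTCTATAcaaagggtgtc
Grhpr, match to the Ttr siRNAs, chr4:44992790-44992817, plus strand: gtattcgaaagTCTATAcacctgttagt
Prodh2, match to the Hao1 siRNAs, chr7:30214003-30214030, plus strand: tggagccagccTCGACAgtccaggtgat
TCTATA occurs in 30.3% of the 11152 3′-UTRs of tested genes and TCGACA in 5.22%. None of these matches extends to guide position 8 or has an A opposite position 1. Agxt, Agxt2, Hoga1, Ldha and Dao held neither motif in these transcripts.

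A library held between 3409963 and 6160626 counts, with a median of 4983570. ERCC spike-in RNA took 0.425% to 1.431% of the counts. All 15 hepatocyte marker genes had a mean over 1 CPM (gene counts scaled to a common library size), led by Alb (albumin, median 14400 CPM), while Cps1, the entry enzyme of the urea cycle, had a median of 4.94 CPM. The endothelial list had 0 of 6 genes over 1 CPM, with a summed level of 0.229 to 3.71 CPM. The macrophage list had Cd68 alone of 6, with Marco and Vsig4 at 0 in every library, and the stellate list had Reln alone of 6. All 5 cholangiocyte genes were over 1 CPM, with a summed level of 118 to 259 CPM. Ttr had a mean of 660.7 CPM with mock, and between 0.9896 CPM with D5 at 50 nM and 20.17 CPM with D5 at 0.1 nM over the 12 groups of D4, D5 and D6, so that the libraries carried the knockdown their labels name.

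With mock, the 8 genes spanned a wide range of levels. Per kilobase of annotated exon, the mean level was 174 CPM for Ldha, 5.99 for Hoga1, 5.67 for Hao1, 3.51 for Grhpr, 2.93 for Agxt, 1.03 for Agxt2 and 0.0809 for Prodh2. Dao had 0 counts in all 8 mock libraries. On this scale Hao1, the gene with the strongest response, stood near Hoga1 and Grhpr and far below Ldha before silencing. The scale uses all annotated exon bases, 5948 for Hao1, 3390 for Hoga1 and 10712 for Grhpr. The canonical Hao1 transcript has 1113 coding and 898 3′-UTR bases, so the order of these 3 genes depends on the length used. In bulk RNA, fewer cells expressing a gene and less of its RNA per cell cannot be told apart.

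Hao1 fell with D1, D2 and D3 at every dose, and the lowest dose lowered it without any other gene passing the test in the edgeR fit over all groups. In the 8 mock libraries Hao1 ranged from 27.67 to 38.73 CPM (117 to 205 counts), with a median of 34.06. At 0.1 nM the 4 libraries had 8.94, 13.4, 14.4 and 12.1 CPM with D1, and 13.4, 14.4, 13.4 and 13.9 CPM with D2. With D3 at 0.1 nM they had 7.32, 3.72, 7.15 and 9.11 CPM. All 12 libraries lay below every mock library, and D3 at 0.1 nM held the lowest of them. The log2 fold change against mock was −1.45 with D1 (SE 0.14), −1.29 with D2 (SE 0.14) and −2.29 with D3 (SE 0.16), with adjusted p-values of 2.19e-13, 4.97e-11 and 4.45e-23. These and all later adjusted p-values are Benjamini-Hochberg values from edgeR's quasi-likelihood test over the 12153 genes tested, and a gene is called changed where the value is under 0.05. In each of these 3 comparisons Hao1 was the 1 gene called, which is 0.00823% of the genes tested. That count depended on the fit with D1 and D3. A fit of D1 at 0.1 nM and mock alone called 1 gene higher and 35 lower. For D3 at 0.1 nM, a fit with replicate number as a block and one without the count filter each called 2 higher and 1 lower. With D2 at 0.1 nM each of these fits called 0 higher and 1 lower.

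**Figure D1:**
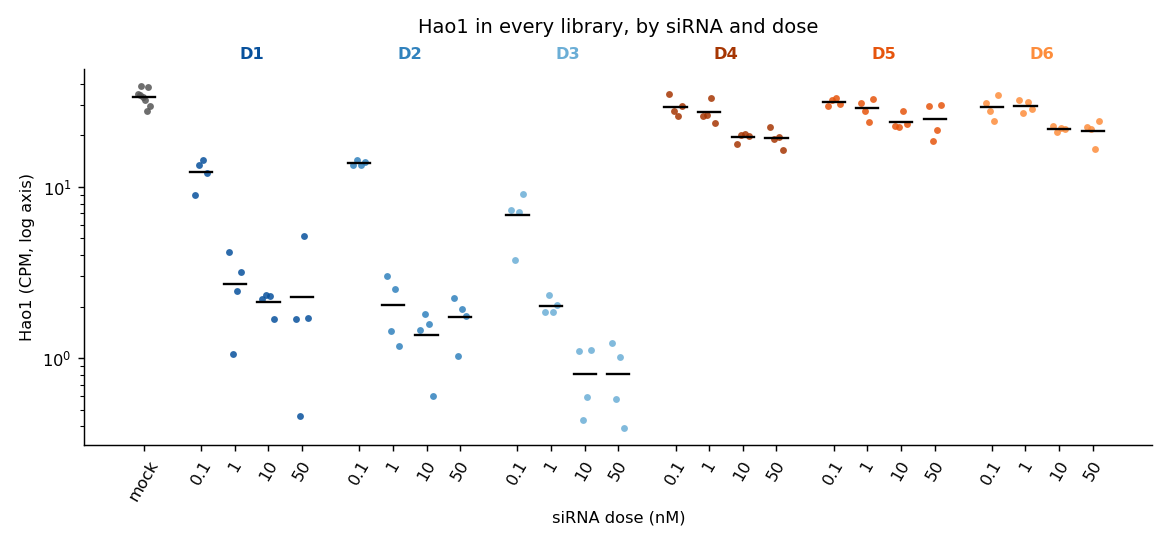
Hao1 level in CPM (log axis) in every library, by siRNA and dose in nM. Points are libraries and black bars group means. D1, D2 and D3 libraries lie below all mock libraries at each dose, and those of D4, D5 and D6 at 10 and 50 nM lie in the lower part of the mock range or below it.

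At 1 nM, Hao1 was at 8.1% of mock with D1, 6.1% with D2 and 6.05% with D3 in the fitted values, and the log2 fold changes were −3.63 (SE 0.19), −4.03 (SE 0.20) and −4.05 (SE 0.20). With D2 at 1 nM Hao1 was again the single gene called, while D1 at 1 nM changed 42 genes (0.346%) and D3 at 1 nM 26 genes (0.214%). At 10 nM the libraries had 2.2, 2.35, 2.32 and 1.69 CPM with D1, 1.46, 1.81, 1.59 and 0.599 CPM with D2, and 1.1, 0.435, 0.593 and 1.12 CPM with D3. The D3 libraries at 10 nM all lay below those of D1, which they did not overlap, and overlapped those of D2. The log2 fold changes at 10 nM were −3.96 (SE 0.20), −4.60 (SE 0.22) and −5.32 (SE 0.24), with adjusted p-values of 5.8e-35, 3.82e-36 and 7.03e-38. At 50 nM they were −3.96 (SE 0.21), −4.25 (SE 0.21) and −5.39 (SE 0.25), with 2 to 19 counts of Hao1 left in a library. One D1 library at 50 nM kept 5.19 CPM while another had 0.461 CPM.

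The dose steps of Hao1 were largest between the 2 lowest doses. From 0.1 to 1 nM the log2 difference was −2.17 (SE 0.24) with D1, −2.75 (SE 0.24) with D2 and −1.75 (SE 0.27) with D3, all called. The next steps were not called. Between 1 and 10 nM the difference was −0.34 with D1 (95% interval −0.99 to 0.32), −0.57 with D2 (−1.34 to 0.20) and −1.28 with D3 (−2.14 to −0.41, adjusted p = 0.075). In this D3 step edgeR's unadjusted p was 0.00411, and all 4 libraries at 10 nM lay below all 4 at 1 nM. Between 10 and 50 nM it was −0.00 with D1 (−0.67 to 0.67), 0.35 with D2 (−0.45 to 1.15) and −0.07 with D3 (−1.15 to 1.01), so that changes up to the ends of these intervals were not detectable at this depth. Over the 9 steps, 1.58% of all gene tests passed.

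The 3 siRNAs against Hao1 share 1 sequence and differ in the nucleotide at guide position 5. Over the 12 pairs of siRNAs at 1 dose, adjusted within each pair over all genes and not over the pairs, Hao1 differed in 3, against 6.09% of gene tests in these pairs. It was higher with D2 than with D3 at 0.1 nM (log2 difference 1.01, SE 0.19, adjusted p = 0.00908) and higher with D1 than with D3 at 10 nM (1.36, SE 0.43, adjusted p = 0.0178) and at 50 nM (1.43, SE 0.45, adjusted p = 0.0124). D1 and D2 did not pass the test at any dose, and their difference in Hao1 was −0.17 at 0.1 nM (95% interval −0.52 to 0.18), 0.41 at 1 nM (−0.26 to 1.08), 0.64 at 10 nM (−0.12 to 1.39) and 0.29 at 50 nM (−0.46 to 1.03). At 1 nM none of the pairs passed, and D2 and D3 differed by 0.01 (−0.69 to 0.72). The calls between siRNAs depended on single replicates. Without replicate 3 of every group none of the 3 remained (1.19 at 10 nM, adjusted p = 0.0906, and 0.90 at 50 nM, adjusted p = 0.309), and 2 fell away without replicate 2. The call at 0.1 nM was also lost without replicate 1 (1.06, adjusted p = 0.159) and that at 50 nM without replicate 4 (1.31, adjusted p = 0.0656). DESeq2 kept the call at 0.1 nM and lost those at 10 nM (0.31, adjusted p = 0.209) and 50 nM (0.37, adjusted p = 0.0938).

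In the order of the 25 group means, the 13 groups without a Hao1 siRNA held the first 13 places, from 33.7 CPM with mock to 19.35 CPM with D4 at 50 nM, and the 12 groups of D1, D2 and D3 followed, from 13.79 CPM with D2 at 0.1 nM to 0.8021 CPM with D3 at 50 nM. 4 of the 24 gaps between neighbours were larger than the larger of both SDs. They lay between D4 at 50 nM and D2 at 0.1 nM, between D1 and D3 at 0.1 nM, between D3 at 0.1 nM and D1 at 1 nM, and between D2 and D3 at 10 nM. All other neighbours differed by less than their spread.

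Hao1 was also lower with the siRNAs against Ttr, by far less and at the higher doses. At 0.1 and 1 nM the log2 fold change against mock lay between −0.10 (D5 at 0.1 nM) and −0.30 (D4 at 1 nM) and was not called by edgeR, with 1 of the 6 unadjusted p-values under 0.05 (D4 at 1 nM, 0.0196). DESeq2 called Hao1 lower with D4 at 1 nM (−0.37, adjusted p = 0.0425) and not in 4 of the other 5 groups at these doses, and it gave no adjusted p for D5 at 0.1 nM. At 10 nM the libraries had 17.7, 20.1, 20.3 and 19.9 CPM with D4, 22.7, 22.5, 27.8 and 23.4 CPM with D5, and 22.7, 20.9, 22.1 and 21.9 CPM with D6. At 50 nM they had 22.4, 19.0, 19.5 and 16.4 CPM with D4, 29.8, 18.5, 21.4 and 30.3 CPM with D5, and 22.4, 21.8, 16.7 and 24.4 CPM with D6. All libraries of D4 and D6 at these doses lay below the lowest mock library at 27.67 CPM, whereas 1 of 4 D5 libraries at 10 nM and 2 of 4 at 50 nM overlapped mock.

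The log2 fold change of Hao1 at 10 nM was −0.79 with D4 (SE 0.13, adjusted p = 5.57e-07), −0.48 with D5 (SE 0.13, adjusted p = 0.00901) and −0.62 with D6 (SE 0.13, adjusted p = 0.000105). At 50 nM it was −0.80 with D4, −0.44 with D5 (adjusted p = 0.0251) and −0.65 with D6. Of all genes, 15.0% fell with D4 at 10 nM, 2.72% with D5 and 12.6% with D6. The D5 call at 50 nM was lost without replicate 2 (−0.32, adjusted p = 0.197), without replicate 3 (−0.38, adjusted p = 0.15) or without mock replicate 3 or 7. From 1 to 10 nM Hao1 fell by 0.49 (SE 0.15, adjusted p = 0.0155) with D4 and by 0.44 (SE 0.15, adjusted p = 0.0388) with D6, and with D5 the difference was −0.26 (95% interval −0.56 to 0.03). The D4 step was lost without replicate 1 or 3 and the D6 step without any of the 4 replicates (adjusted p from 0.0598 to 0.157).

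**Figure D2:**
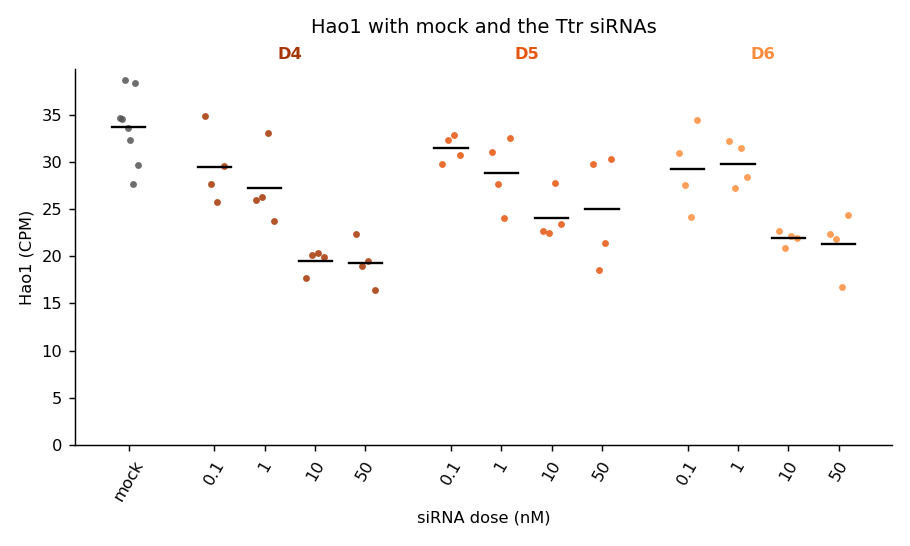
Hao1 level in CPM (axis from 0) in the 8 mock libraries and in the 4 libraries of each dose of D4, D5 and D6. Points are libraries and black bars group means, which lie at 19.51, 24.11 and 21.91 CPM at 10 nM with D4, D5 and D6 against 33.7 CPM with mock.

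Among the 3 Ttr siRNAs no pair differed in Hao1 at any dose by edgeR, where 7.88% of gene tests in the 12 pairs passed. In 2 of the 12 pairs the unadjusted p was under 0.05, D4 against D5 at 10 nM (−0.31, 95% interval −0.61 to −0.00) and at 50 nM (−0.35, −0.67 to −0.04), and DESeq2 called 0 of the 12. D4 against D6 differed by −0.17 at 10 nM (−0.48 to 0.14) and D5 against D6 by 0.14 (−0.17 to 0.44). The Hao1 transcript holds the TCTATA match shown above, which all 3 guides share in sequence. Whether that match had a part in the lower Hao1 was not tested. Genes of other functions moved in the same groups. In the hepatocyte list, D4 at 50 nM lowered 4 of 15 genes, among them Apob (−0.62, SE 0.10) and Cps1 (−0.69, SE 0.28), and raised 2, Alb and Apoa2. D6 at 50 nM lowered 5, among them Apob (−0.70, SE 0.10) and Cyp2e1 (−1.34, SE 0.17), and raised Alb. D5 at 50 nM raised Alb and lowered 0 by edgeR and 0 by DESeq2, with 2 unadjusted p-values under 0.05. Of all genes, 16.7% fell and 15.3% rose with D4 at 50 nM, 15.7% and 14.4% with D6, and 1.85% and 4.3% with D5. The part of a general change of hepatocyte genes in the lower Hao1 was not tested.

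With D1, D2 and D3 the other tested enzymes moved far less than Hao1. Their log2 fold changes against mock lay between −0.53 and 0.58, and those of Hao1 between −5.39 and −1.29. With D4, D5 and D6 the sizes were closer, between −0.56 and 0.67 for the other enzymes and between −0.80 and −0.10 for Hao1. Over the 12 comparisons of D1, D2 and D3 with mock, the 5 tested enzymes beside Hao1 gave 60 tests, of which 4 were called higher and 3 lower, against 3.66% higher and 4.22% lower, 7.88% in all, among the gene tests of these comparisons. Over the 12 comparisons of D4, D5 and D6, 4 of 60 were higher and 7 lower, against 5.43% higher and 5.51% lower, 10.9% in all, of the gene tests. All 24 comparisons share the 8 mock libraries. With D4, D5 and D6, 0.00823%, 0.00823% and 0.0247% of the genes were called at 0.1 nM and 1.46%, 0.0329% and 1.4% at 1 nM. With D1, D2 and D3 it was 0.00823% each at 0.1 nM, and 0.346%, 0.00823% and 0.214% at 1 nM. No enzyme beside Hao1 was called at 0.1 or 1 nM by edgeR, which is near these shares of all genes. Hao1 was at 6.05% to 8.1% of mock with D1, D2 and D3 at 1 nM. The calls at 10 and 50 nM were in Hoga1, Ldha and Grhpr, each with both siRNA families.

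**Figure D3:**
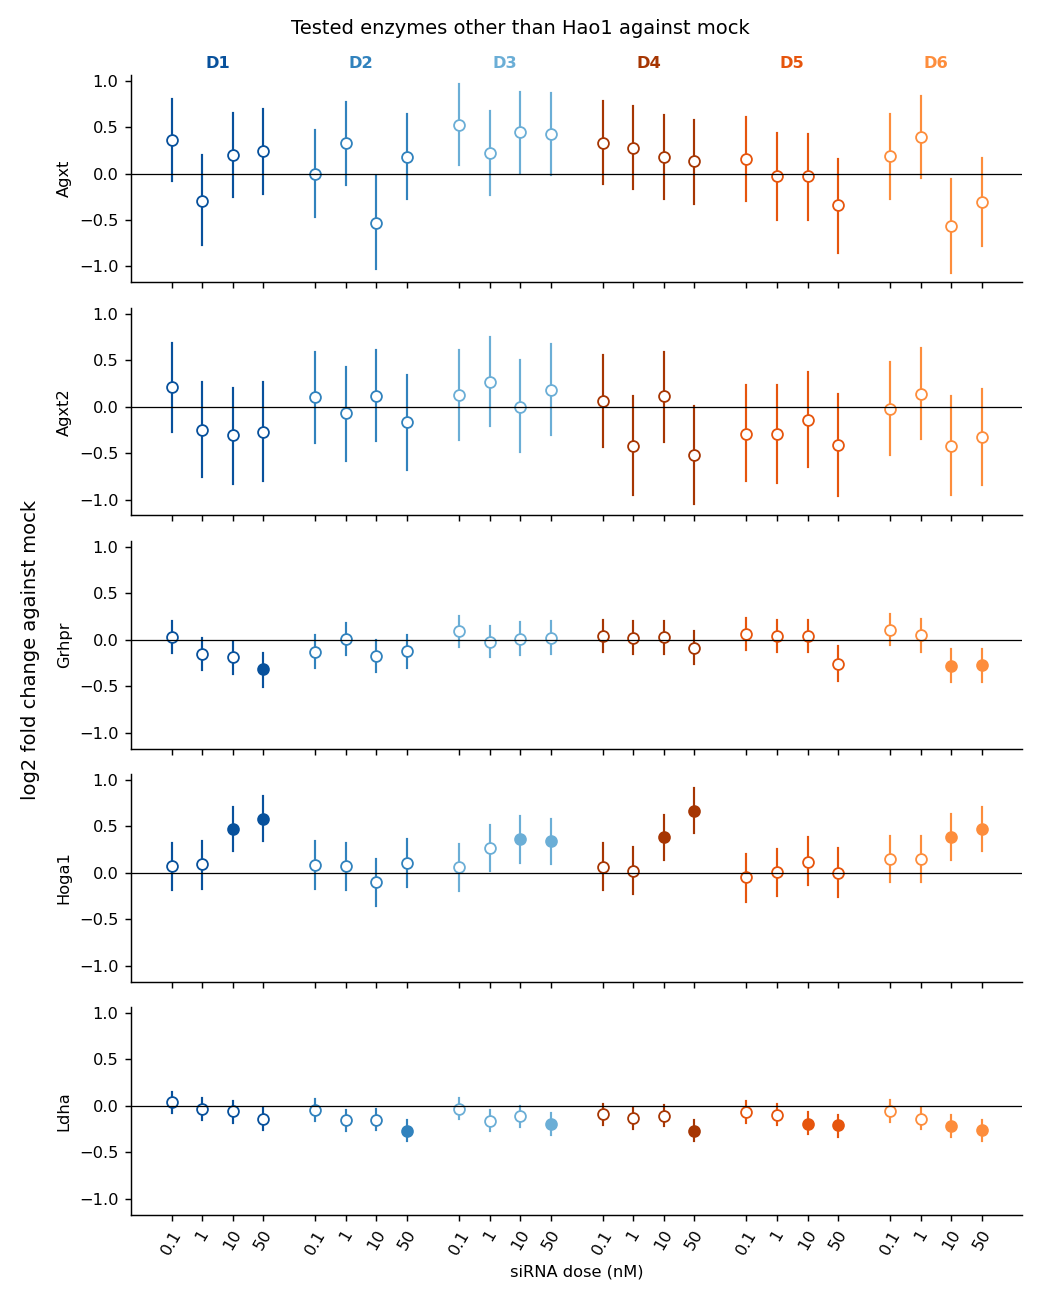
Log2 fold change against mock of the 5 tested enzymes beside Hao1, by siRNA and dose in nM. Bars are 95% intervals, filled points were called at an adjusted p under 0.05 and open points were not. Hoga1 is higher with D1, D3, D4 and D6 at 10 and 50 nM and near 0 with D2 and D5.

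Hoga1 (ENSMUSG00000025176, chr19:42033966-42060134), the mitochondrial aldolase that releases glyoxylate, was the enzyme with the largest called change against mock beside Hao1, and it was higher with 4 of the 6 siRNAs. With mock it ranged from 18.2 to 22.73 CPM, with a median of 19.99. At 10 nM the libraries had 30.8, 27.0, 29.0 and 25.3 CPM with D1, 15.0, 19.9, 21.8 and 18.6 CPM with D2, and 25.1, 31.1, 17.0 and 31.5 CPM with D3. With D4, D5 and D6 at 10 nM they had 29.3, 25.9, 26.1 and 24.3 CPM, 21.4, 23.5, 22.7 and 20.8 CPM, and 23.5, 26.1, 21.3 and 33.9 CPM. All libraries of D1 and D4 lay above every mock library, as did 3 of 4 of D3 and of D6. Below the mock range were 1 D2 library and 1 D3 library, and D5 overlapped mock.

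At 50 nM Hoga1 had 30.3, 34.6, 30.6 and 26.5 CPM with D1, 22.9, 18.7, 19.6 and 26.2 CPM with D2, and 20.5, 28.5, 23 and 29.9 CPM with D3. It had 29.6, 35.8, 34.2 and 29.6 CPM with D4, 18.8, 20.1, 21.2 and 21.2 CPM with D5, and 33.2, 27.0, 24.4 and 28.0 CPM with D6. D1, D4 and D6 were above all mock libraries, and D5 was within the mock range. The log2 fold change against mock was 0.47 (SE 0.12, adjusted p = 0.00206) with D1 at 10 nM and 0.58 (SE 0.12, adjusted p = 8.11e-05) at 50 nM, 0.38 (SE 0.12, adjusted p = 0.0109) with D4 at 10 nM and 0.67 (SE 0.12, adjusted p = 1.63e-06) at 50 nM. With the isonucleotides it was 0.36 (adjusted p = 0.03) and 0.34 (adjusted p = 0.0343) with D3, and 0.38 (adjusted p = 0.0146) and 0.47 (adjusted p = 0.00103) with D6. With D2 it was −0.10 (95% interval −0.36 to 0.15) and 0.11 (−0.15 to 0.36), and with D5 0.12 (−0.13 to 0.38) and 0.00 (−0.26 to 0.27).

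**Figure D4:**
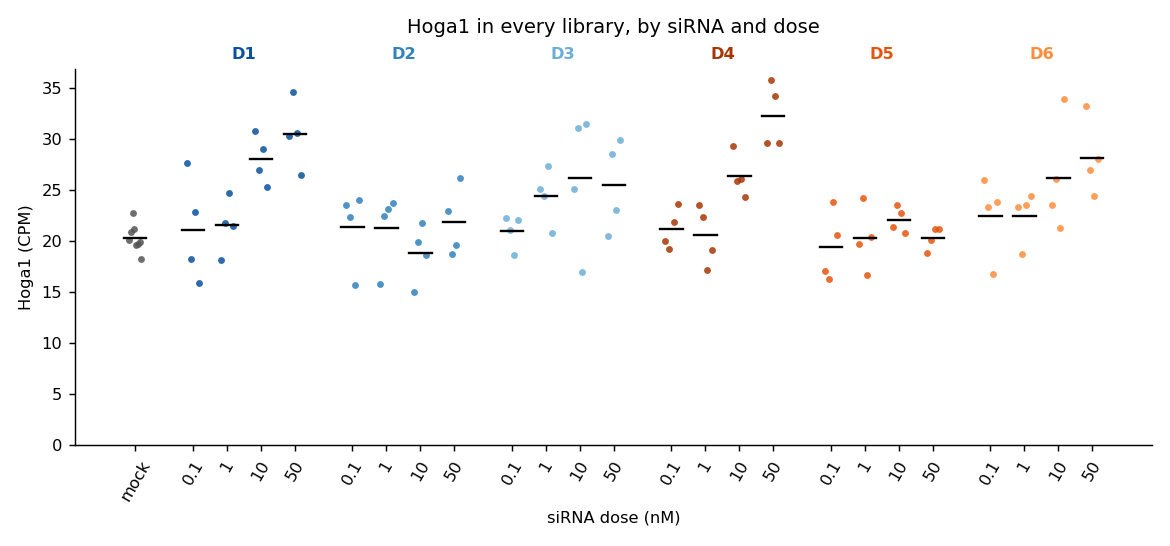
Hoga1 level in CPM (axis from 0) in every library, by siRNA and dose in nM. Points are libraries and black bars group means, which at 50 nM are 30.5, 21.86 and 25.44 CPM with D1, D2 and D3, and 32.3, 20.3 and 28.14 CPM with D4, D5 and D6, against 20.29 CPM with mock.

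The differences between siRNAs of 1 sequence were tested directly. Hoga1 was higher with D1 than with D2 at 10 nM (log2 difference 0.57, SE 0.14, adjusted p = 0.00228) and at 50 nM (0.48, SE 0.14, adjusted p = 0.0113), higher with D4 than with D5 at 50 nM (0.67, SE 0.14, adjusted p = 0.000113), lower with D2 than with D3 at 10 nM (−0.46, SE 0.14, adjusted p = 0.0489) and lower with D5 than with D6 at 50 nM (−0.47, SE 0.14, adjusted p = 0.0106). The parents and the isonucleotide siRNAs did not pass the test against each other, with D1 minus D3 at 0.11 (95% interval −0.17 to 0.38) and 0.25 (−0.03 to 0.52), and D4 minus D6 at −0.00 (−0.27 to 0.27) and 0.20 (−0.07 to 0.46) at 10 and 50 nM. Between the targets there was no call in Hoga1: D1, D2 and D3 together differed from D4, D5 and D6 by −0.06 (−0.22 to 0.11) at 10 nM and −0.04 (−0.20 to 0.12) at 50 nM. The D3 calls were lost without replicate 2 (0.27 at 10 nM and 0.28 at 50 nM, adjusted p = 0.237 and 0.172), replicate 4 (0.26 and 0.25) or mock replicate 8, and the D4 call at 10 nM without replicate 1 (0.33, adjusted p = 0.056). The D6 call at 10 nM was lost without replicate 4 (0.22, adjusted p = 0.258). Among the calls between siRNAs, that of D2 against D3 at 10 nM was lost without replicate 1, 2 or 4 (adjusted p from 0.246 to 0.315) and with DESeq2 (adjusted p = 0.0533). D1 against D2 was lost at 10 nM without replicate 1 (0.43, adjusted p = 0.0739) and at 50 nM without replicate 2 (0.35, adjusted p = 0.207) or 3 (0.42, adjusted p = 0.0548). D5 against D6 at 50 nM was lost without replicate 1 (−0.35, adjusted p = 0.134), whereas D4 against D5 at 50 nM stayed called whichever of the 4 was left out.

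The number of genes called moved with the same siRNAs. At 10 nM it was 20.5% of the genes with D1, 1.44% with D2, 17.3% with D3, 29.1% with D4, 6.92% with D5 and 24.2% with D6. At 50 nM it was 24.7% of the genes with D1, 5.12% with D2, 24.9% with D3, 32.0% with D4, 6.15% with D5 and 30.0% with D6. Its part in Hoga1 was not tested. Hoga1 overlaps Morn4 on the other strand over 3579 bases and 4933411K16Rik on its own strand over 1380 bases. The kit marks strand, but the strand setting of the counting is not given in the sources used here, so that reads of Hoga1 and Morn4 may not be told apart. Morn4 was not called at 10 or 50 nM (−0.49 to 0.27), and 4933411K16Rik was called with D6 at 50 nM (0.89, SE 0.34, adjusted p = 0.0383) at a mean of 1.582 CPM with mock. The summed cholangiocyte markers ranged from 146 to 235 CPM over the siRNA group means against 159 CPM with mock. At 10 nM 4, 0, 4, 2, 3 and 3 of the 5 were called higher with D1 to D6. Of all 12153 genes, 1157, 80, 1038, 1710, 510 and 1412 were called higher in these groups. The part of the cholangiocyte markers in Hoga1 was not tested.

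Ldha (ENSMUSG00000063229, chr7:46490899-46505061), which makes oxalate from glyoxylate and lactate from pyruvate, was slightly lower with 5 of the 6 siRNAs. It ranged from 762.8 to 913.4 CPM with mock, and its median over all libraries was 760 CPM. It was called lower with D2 and D3 at 50 nM (−0.27 and −0.20), with D4 at 50 nM (−0.27), and with D5 (−0.19 and −0.21) and D6 (−0.22 and −0.26) at 10 and 50 nM, each with an SE of 0.06. At 50 nM the D4 libraries had 705, 675, 664 and 700 CPM and the D2 libraries 719, 659, 657 and 706 CPM, all below the lowest mock library. D5 at 50 nM had 694, 677, 657 and 818 CPM, and the last of these overlapped mock. With D1 at 50 nM it was −0.14 (95% interval −0.26 to −0.02, adjusted p = 0.065). Gapdh, an enzyme of glycolysis, lay between −0.17 and 0.06 over the 24 comparisons, and was called lower with D1, D2 and D3 at 50 nM and with D3 at 10 nM. The D5 calls were lost without replicate 1 or 3 and, at 50 nM, without replicate 2, and at 10 nM without mock replicate 4. Between the targets Ldha differed by 0.06 (95% interval −0.01 to 0.14) at 10 nM and 0.05 (−0.03 to 0.12) at 50 nM, with no call.

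Grhpr (ENSMUSG00000035637, chr4:44981390-44998142), which reduces glyoxylate to glycolate, was lower with 2 siRNAs. It ranged from 32.06 to 43.26 CPM with mock. With D1 at 50 nM the libraries had 30.0, 32.3, 27.9 and 29.8 CPM, 3 of 4 below all mock libraries, and the log2 fold change was −0.32 (SE 0.09, adjusted p = 0.00426). With D6 it was −0.28 (SE 0.09, adjusted p = 0.0146) at 10 nM and −0.27 (SE 0.09, adjusted p = 0.0115) at 50 nM. With D5 at 50 nM it was −0.26 (95% interval −0.44 to −0.07, adjusted p = 0.0785). D1 was below D3 at 50 nM (−0.35, SE 0.10, adjusted p = 0.00849) and D6 below D5 at 10 nM (D5 minus D6 0.32, SE 0.10, adjusted p = 0.0191). The D1 against D3 call was lost without replicate 3 (−0.32, adjusted p = 0.0831) or 4, the D6 calls at 10 nM without replicate 2 or 3 and at 50 nM without replicate 1 or 3, and the D5 against D6 call without replicate 2, 3 or 4. Zbtb5, which encodes a zinc finger protein and overlaps Grhpr on the other strand over 6901 bases, was called higher in these groups (0.62 with D1 at 50 nM, 0.64 and 0.82 with D6 at 10 and 50 nM), and also with D1 at 10 nM (0.51), with D3 at 10 and 50 nM (0.69 and 0.86) and with D4 at 50 nM (0.64), where Grhpr was not called.

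Agxt (ENSMUSG00000026272, chr1:93062962-93073143), the peroxisomal aminotransferase whose loss causes primary hyperoxaluria in people, was not called against mock with any siRNA or dose by edgeR, with an unadjusted p under 0.05 in 3 of the 12 comparisons of D1, D2 and D3 and 1 of the 12 of D4, D5 and D6. DESeq2 called 0 of the 24. Its log2 fold change lay between −0.53 (D2 at 10 nM) and 0.52 (D3 at 0.1 nM) with the former, and between −0.56 (D6 at 10 nM) and 0.39 (D6 at 1 nM) with the latter. It had 16 to 42 counts in a mock library, 3.477 to 8.045 CPM, and SEs of 0.22 to 0.25. The smallest adjusted p by edgeR was 0.15 with D1, D2 and D3 and 0.0948 with D4, D5 and D6. Even estimates as large as −0.56 were thus not called, and changes of that size or smaller could have been missed. At 10 nM it had 3.55, 4.43, 3.57 and 3.19 CPM with D2 against 8.05, 6.08, 7.51 and 7.37 CPM with D3, with no overlap, and D2 was lower than D3 (log2 difference −0.98, SE 0.27, adjusted p = 0.0234). This call was lost without replicate 1, 3 or 4 (adjusted p from 0.108 to 0.151). With D5 at 50 nM its libraries spread from 1.93 to 7.41 CPM.

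With both siRNA families at 1 dose set against each other, 12 libraries against 12, Agxt was the single enzyme beside Hao1 that differed. In this contrast, named between the targets throughout, loss of Hao1, loss of Ttr and the off-targets of each guide sequence cannot be told apart. Hao1 was lower with D1, D2 and D3 than with D4, D5 and D6 by a log2 difference of −1.52 (SE 0.10) at 0.1 nM, −3.67 (SE 0.13) at 1 nM, −4.00 (SE 0.14) at 10 nM and −3.90 (SE 0.15) at 50 nM, with all 12 libraries below all 12 others at each dose. Of the 20 tests of the 5 other enzymes 1 was called, against 17.1% of all gene tests over the 4 doses and 35.3% at 50 nM. By edgeR 0 of 5 were called at 0.1, 1 and 10 nM, where 0.0247%, 1.32% and 31.7% of all genes were, with 0 unadjusted p-values under 0.05, and 0 were called by DESeq2. At 50 nM Agxt was higher with the Hao1 siRNAs (6.509 against 4.722 CPM, log2 difference 0.46, SE 0.15, 95% interval 0.15 to 0.77, adjusted p = 0.0139), with 3 of 12 libraries above all of the others. At 10 nM the difference was 0.18 (−0.14 to 0.49). Without replicate 4 of every group it was 0.31 (adjusted p = 0.224) at 50 nM.

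**Figure D5:**
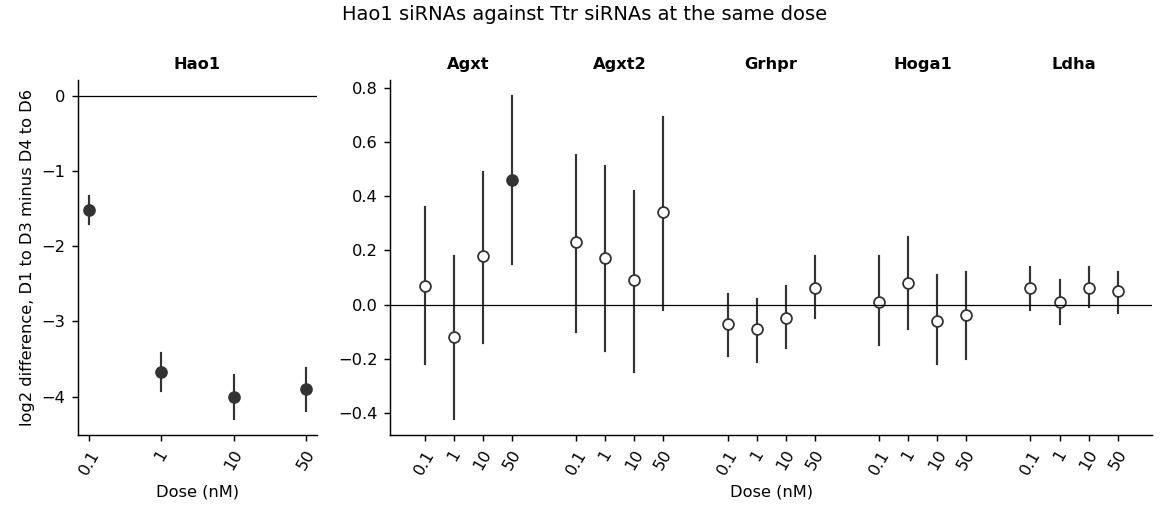
Log2 difference between the Hao1 siRNAs (D1 to D3) and the Ttr siRNAs (D4 to D6) at the same dose in nM, for Hao1 on the left and the other tested enzymes on the right, with different vertical scales. Bars are 95% intervals and filled points were called. Hao1 lies between −1.52 and −4.00, and Agxt at 50 nM is the 1 filled point on the right.

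The Agxt difference was not even over the chemistries. D3 was above D6 by 1.01 (SE 0.27, adjusted p = 0.00301) at 10 nM and by 0.74 (SE 0.26, adjusted p = 0.0257) at 50 nM, where 23.5% and 27.3% of all genes were called. The parents, D1 against D4, differed by 0.02 (95% interval −0.49 to 0.52) and 0.11 (−0.41 to 0.63), and D2 against D5 by −0.50 (−1.06 to 0.07) and 0.53 (−0.03 to 1.08). Grhpr was likewise higher with D3 than with D6, by 0.29 (adjusted p = 0.0263) and 0.30 (adjusted p = 0.0185), and was not called between the other matched pairs. In D6 itself Agxt fell by 0.95 (SE 0.28, adjusted p = 0.0117) and Grhpr by 0.32 (SE 0.10, adjusted p = 0.0248) from 1 to 10 nM, and over the 9 steps of D4, D5 and D6 3.24% of gene tests passed. The Agxt step was lost without replicate 1 (−0.98, adjusted p = 0.053) or 2, and the Grhpr step without replicate 1, 2 or 3.

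Agxt2 (ENSMUSG00000089678, chr15:10358605-10411500), a mitochondrial aminotransferase with glyoxylate among its acceptors, was not called by edgeR against mock, between the targets, between siRNAs of 1 target or between doses. It had a median of 23 counts in a library, and its log2 fold change against mock lay between −0.52 (D4 at 50 nM, 95% interval −1.05 to 0.01) and 0.27 (D3 at 1 nM, −0.21 to 0.75). Its unadjusted p was under 0.05 in 0 of the 24 comparisons with mock, and DESeq2 called 0. The gene Gm21973, which overlaps it on the same strand over 15231 bases, had 0 CPM in every mock library.

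Prodh2 (ENSMUSG00000036892, chr7:30193011-30214380), the hydroxyproline dehydrogenase, had 0 to 9 counts in a library and 313 in all, with 10 libraries at 0. In the mock group it had 0, 0, 7, 3, 2, 2, 1 and 2 counts, and with D3 at 50 nM 5, 0, 0 and 1. Dao (ENSMUSG00000042096, chr5:114141740-114163743), the D-amino acid oxidase, had 3 counts in all, in 2 D6 libraries, and 0 in the other 102. Neither was tested. In edgeR's fit with no filter on low counts, Prodh2 was called in 0 and Dao in 0 of the 24 comparisons with mock. A count of 0 in a library allows up to 3 counts by counting error alone.

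The wider set of genes that make, move or use glyoxylate, glycolate and glycine held 18 genes, of which 15 were tested and Hao2, Ldhb and Sds were not. Against mock, 0 of the 15 were called at 0.1 or 1 nM with any siRNA by edgeR or by DESeq2, with 19 of the 180 unadjusted p-values under 0.05. At 50 nM 1 was higher and 2 lower with D1, where 11.3% of all genes were higher and 13.4% lower, and 0 and 1 with D2, where 2.51% and 2.61% were. With D3 3 were higher and 4 lower, beside 11.3% and 13.6% of all genes. With D4 it was 5 and 3, with D5 1 and 1, and with D6 4 and 2, beside the shares of all genes given above for these groups. The median of the 15 at 50 nM lay between −0.08 and 0.05, against −0.006 to 0.015 over all genes. Between the targets, 3 were higher and 3 lower both at 10 and at 50 nM, out of 15, where 15.6% of all genes were higher (1901 of 12153) and 1947 of 12153 lower at 10 nM, and 17.0% and 18.3% at 50 nM.

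At 50 nM Shmt1, which interconverts serine and glycine in the cytosol, was lower with the Hao1 siRNAs than with the Ttr siRNAs by −0.37 (SE 0.07, adjusted p = 3.53e-06) and at 10 nM by −0.29 (SE 0.07). Against mock, Shmt1 was called lower with D1 at 50 nM and with D2 and D5 at 10 and 50 nM. It was called higher with D4 at 10 and 50 nM and with D6 at 50 nM. Between the targets catalase, Cat, which removes the hydrogen peroxide that glycolate oxidase makes, was lower by −0.16 at 10 nM and −0.20 (SE 0.04, adjusted p = 1.45e-06) at 50 nM. Against mock, Cat was called lower with D3 at 10 and 50 nM. It was called higher with D4 at 10 and 50 nM and with D6 at 50 nM. Got1, an aspartate aminotransferase, was lower between the targets by −0.16 and −0.18. Against mock it was called higher with D1 and D5 at 10 nM and with D4 and D6 at 10 and 50 nM, and lower with D3 at 50 nM. Glyctk, the glycerate kinase, was higher between the targets by 0.33 (SE 0.09) and 0.36 (SE 0.10, adjusted p = 0.00189), with 8 of 12 libraries at 50 nM above all of the others. Against mock it was called lower with D4 at 50 nM and D6 at 10 nM, and was not called by edgeR with D1, D2 or D3. The anion exchangers that carry oxalate and sulfate were each higher between the targets at 1 dose, Slc26a6 at 10 nM (0.53, SE 0.18, adjusted p = 0.0166) and Slc26a1 at 50 nM (0.27, SE 0.07, adjusted p = 0.000936). Slc26a6 at 50 nM (0.20, 95% interval −0.16 to 0.55) and Slc26a1 at 10 nM (0.03, −0.10 to 0.17) were not called by edgeR. Against mock, Slc26a1 was called higher with D1 and the Ttr siRNA D5 at 10 and 50 nM and with D3 at 50 nM. Slc26a6 was called higher than mock with D3 at 10 nM. Dld at 10 nM and Shmt2 at 50 nM were each higher by 0.11 between the targets. Compared with mock, Shmt2 was called lower with D3, D4 and D6 at 10 and 50 nM, and Dld lower with D6 at 10 nM. Dld at 50 nM (0.06) and Shmt2 at 10 nM (0.04) were not called by edgeR. At 0.1 and 1 nM 0 of the 15 were called between the targets by edgeR and 0 by DESeq2, with 5 of the 30 unadjusted p-values under 0.05.

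Of the 15 peroxisome import and biogenesis genes, 2 were higher and 4 lower with the Hao1 siRNAs than with the Ttr siRNAs at 10 nM, and 2 and 3 at 50 nM, to be read, like the counts that follow, against the same shares of all genes higher and lower at each dose. Of the 15 peroxisomal oxidases and genes of beta-oxidation, 0 were higher by edgeR and 2 lower at 10 nM, and 1 and 3 at 50 nM. The medians of both lists lay between −0.06 and −0.00, beside −0.011 and −0.006 over all genes. Of the 15 hepatocyte markers, 7 were higher and 1 lower at 10 nM, and 6 and 2 at 50 nM, so that the higher calls exceeded the share of all genes and the lower calls did not. In the interferon response list, 14 genes tested, 1 was higher at 10 nM and 4 at 50 nM, with 0 lower by edgeR or DESeq2 and no unadjusted p under 0.05 among the lower ones.

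The genes whose group means followed Hao1 most closely were described by Pearson's r of mean log2 CPM, with no test, among 12138 genes with a mean of at least 1 CPM. Over the 25 groups these were Gsta2 (r = 0.879), Rph3al (0.843), Map4 (0.837), Plin3 (0.834) and Rps6ka1 (0.824). Their group means ranged over 0.35 to 1.08 on the log2 scale, against 4.87 for Hao1, and the 12 groups of D1, D2 and D3 set the shape. Over the 13 groups without a Hao1 siRNA they were Cdk13 (0.983), Sult1d1 (0.960), Sgo2a (0.956), Upf3a (0.956) and Gm49774 (0.954), where Hao1 itself ranged over 0.79. Among the enzymes, Ldha had r = 0.788 with Hao1 over these 13 groups, Grhpr 0.550, Agxt2 0.448, Agxt 0.292 and Hoga1 −0.849. The 10 and 50 nM groups of D4 and D6 lie at the low end of Hao1 and the high end of Hoga1. Over all 25 groups the r with Hao1 lay between −0.246 for Agxt and 0.222 for Grhpr. Most like Agxt over 25 groups were Cul7 (0.714), Pam16 (0.713), Acat3 (0.679), Bok (0.665) and Qprt (0.656), and Grhpr was at place 14 (0.611).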

How the data were processed

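Gene counts of the PMH libraries (24 groups of 4, and 8 mock) were analysed. Per the paper's methods, the authors trimmed reads with fastq-mcf, aligned them with STAR to GRCm39 and counted uniquely aligned reads with featureCounts, whose version is 2.0.2 in the submitters' processing notes. The deposited files hold raw counts for each of 2 sequencing runs of a library. The annotation release and the strand setting are not given in the sources used here. The deposited DESeq2 tables hold the authors' fold changes and p-values, of which nothing but the gene symbols was used. Counts of both runs were summed, since runs of a library agreed within counting error (chi-square over its degrees of freedom 0.99 to 1.07), whereas pairs of replicates gave at least 1.671. ERCC spike-ins (92) were left out of library sizes.

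edgeR 4.0.16 (R 4.3.3, TMM, filterByExpr, robust quasi-likelihood) was fitted once over all 25 groups, with 12153 genes tested and Benjamini-Hochberg adjustment within each comparison. The SE is the log2 difference divided by the root of F, and intervals are 95%. CPM are counts scaled to a common total of gene counts, and precision is limited by 3409963 to 6160626 counts per library. On simulated data for D1 at 10 nM against mock (11880 genes), 100% of genes changed by −2 on the log2 scale were called, 90% at −1, 72% at −0.5 and 78% at 0.5. The 50 genes of each size were drawn at random from all genes above a low count, and no other group was changed. These rates thus do not give the power for single enzymes of low count such as Agxt and Agxt2.

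The 8 enzymes are named throughout. Partner genes are named where called between the targets at 10 or 50 nM, at most 8 a dose, with the 5 genes most like Hao1 or Agxt, and other lists are given by counts. Genes overlapping an enzyme, Ttr, Gapdh and the 3 hepatocyte genes named were chosen after their values were seen. Members and lists were chosen with earlier results of these data known. Motifs were searched in GENCODE transcripts of GRCm39, with the guides' letters taken from the study. Alternatives were DESeq2 1.42.0 with a beta prior, RLE size factors, no count filter, each run alone, fits of the compared groups alone, a replicate block, leaving out each replicate, and, chosen after seeing the data, the target contrast within each chemistry.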

Additional observations from a re-analysis of the deposited data

Results flagged for a closer look

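Of 150 groups of 4 to 8 libraries checked for the tested enzymes, 5 held a library that stood apart from the others, where chance alone gives about 1 in 20. Hao1 was 17.7 CPM in replicate 1 of D4 at 10 nM, against 19.9 to 20.3 CPM in the others. Agxt2 was 5.66 CPM in replicate 1 of D2 at 50 nM, against 4.11 to 4.27 CPM. It was 3.28 CPM in replicate 2 of D3 at 1 nM, against 6.87 to 7.22 CPM, and 4.99 CPM in replicate 4 of D4 at 1 nM, against 3.39 to 3.53 CPM. Hoga1 was 15.8 CPM in replicate 1 of D2 at 1 nM, against 22.5 to 23.7 CPM.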

How the results depend on the processing

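Of the 67 results followed under alternatives, 59 were tests called in the main fit and the others were counts of calls. Comparisons not called in the main fit were not among them. In 1066 values under alternatives 0 changed sign, but for called tests refitted on the same libraries this was close to fixed in advance. DESeq2 kept 63 of the 67, that is, a call stayed called or a count changed little. RLE size factors kept 66, no count filter 66, the replicate block 59, run 1 alone 42 and run 2 alone 52. The fit of the compared groups alone gave a value for 65 and kept 62. Hao1 with D5 at 10 nM was −0.36 (edgeR, adjusted p = 0.16) in run 1 alone. The 7 calls of other enzymes with D1 to D3 became 4 in run 1 alone, and the 11 with D4 to D6 became 7 in run 1 alone and 7 with the replicate block. The block ended the Hoga1 calls for D3 at 10 and 50 nM, D4 and D6 at 10 nM and D2 against D3 at 10 nM, and the Grhpr calls for D6 at 10 and 50 nM. In that fit mock replicates 5 to 8 have no siRNA library of their number and do not enter a comparison. The labels do not say that a replicate number marks a shared origin, so it was not used as a pairing. Deviations from the group means had a mean correlation of 0.0168 for the same number and −0.00541 for others, and 50 of 96 libraries correlated best with their own number, more than an even spread over 4 numbers gives, which is a hint from the data of an effect shared by number. Between the targets, the 0 calls at 10 nM became 2 for D3 against D6, and the 1 call at 50 nM became 0 in run 1 alone, 0 for D1 against D4, 0 for D2 against D5 and 2 for D3 against D6. The 3 pairs of Hao1 siRNAs became 1 with DESeq2 and 0 in run 2 alone. In the fit of the compared groups alone 0 were called, but Hao1 passed the count filter there in 6 of the 12 pairs, and D1 against D3 at 10 and 50 nM had no value. The cause of these changes was not tested, and a single run also has a lower depth.

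Leaving out 1 replicate at a time, the calls of other enzymes ranged from 5 to 8 with D1 to D3 and from 7 to 12 with D4 to D6 (7 without replicate 1 or 3), those between the targets from 0 to 1 at 50 nM (0 without replicate 4), with 0 at the other doses, and the pairs of Hao1 siRNAs from 0 to 2. Agxt and Agxt2, with medians of 29.5 and 23 counts a library, and Hao1 under D1 to D3, with as few as 2, were limited by depth.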
